A study of Mus musculus with 13 samples.

Results

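Carcinoma organoids from PyMT mice were compared in 2 gels, type I collagen and Matrigel. The comparison takes the 6 tumor samples, each on 1 array, out of the 13 samples of the series: those labelled as PyMT tumor epithelium, 3 in collagen I and 3 in Matrigel. In PyMT mice the MMTV promoter drives the polyoma virus middle T antigen in the mammary epithelium, so every sample carries the transgene and there is no tumor sample without it. The largest tumor of each animal was taken at 12 to 16 weeks of age, when the labels describe the carcinomas as poorly differentiated. Collagenase, trypsin and differential centrifugation left multicellular epithelial fragments, so a sample is a mixture of cells and not a purified type. Fragments were set in acid-solubilized rat-tail collagen I at 3 mg/ml or in Matrigel. Both gels received the same medium with insulin, transferrin and 2.5 nM FGF2, and RNA was taken after 4 days. Mice A, B and C each gave a tumor to both gels, which pairs the arrays. Organoids from normal glands of wild-type FVB mice, grown in the same gels and medium with 3 arrays per gel (mice A, B and C in collagen I, and A, B and D in Matrigel), entered the same fit and are used here only to ask whether a gel effect differed between the tissues.

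Matrigel is a basement membrane extract rich in laminin, collagen IV and nidogen, which epithelial cells bind mainly through laminin-binding integrins. Collagen I is the main fibril of the connective tissue that a carcinoma meets after it leaves the basement membrane, and cells bind it through a separate set of integrins and the discoidin receptors. Contact with either matrix feeds into adhesion signalling, growth factor response, protein secretion and metabolism.

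Levels are log2 signals relative to the 75th percentile of the array, so a level of 0 is a probe at that percentile. Differences are collagen I minus Matrigel in log2 units, ± is limma's standard error, and per-array values are given in the order mice A, B and C. A gene is said to have risen or fallen where limma's p, adjusted by Benjamini-Hochberg over the 18274 genes tested, was under 0.05. Of these genes 2883 rose in collagen I, which is 15.8%, and 2206 fell, which is 12.1%, together 27.8%. Past a 2-fold change there were 2002 that rose and 827 that fell. Of the 5089 genes called, 5032 moved the same way in all 3 mice and 4842 did not overlap between the gels, against 7026 (38.4%) of all genes that did not overlap. With the mouse as a block, 2508 rose and 1646 fell. In collagen I alone, 535 genes were well above background on all 3 arrays and on none in Matrigel, while the reverse held for 5. Where a fold change is given as a bound, limma's p belongs to the difference of the signals and does not test the bound.

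The gels did not give equally bright arrays. The 75th percentile of the signal was 690.7 to 812 units in collagen I and 383 to 570 in Matrigel, and 62.1 to 69.1% against 56.6 to 58.6% of the probes were well above background. Spike-in control RNA stood 0.37 to 0.80 log2 units over the percentile in collagen I and 2.13 to 2.50 in Matrigel. Direction followed brightness: with the genes in 5 equal bins by signal, 994 rose and 88 fell in the dimmest bin, and 126 rose and 969 fell in the brightest. Quantile normalization, which forces the arrays to 1 distribution, gave 731 and 260 in the dimmest bin, and 329 and 341 in the brightest. Under normexp background correction the dimmest bin had 0 rises and 27 falls (limma), with a median of -0.91, and all genes together 490 rises and 761 falls, so the direction of the dim genes depends on how background is handled. This correction adds 50 units to every signal before scaling, which is a larger share of a low percentile than of a high one. It therefore draws signals near background toward lower values in collagen I, and cannot decide the direction of the dim genes. Transcripts with no protein-coding RefSeq accession rose in 25.6% and fell in 7.44% of cases, against 10.6% and 14.5% of genes with one.

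**Figure D1:**
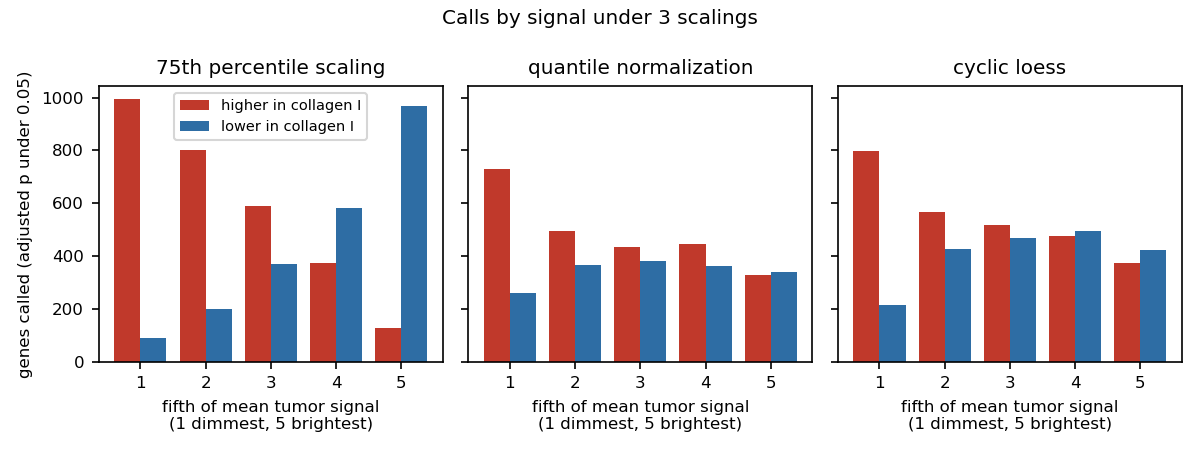
Number of genes that rose (red bars) and fell (blue bars) in collagen I against Matrigel (limma adjusted p under 0.05). Genes are in 5 equal bins by mean signal, dimmest to brightest, under 3 ways of scaling the arrays. With the 75th percentile the dimmest bin has 994 that rose and 88 that fell and the brightest has 126 and 969, while under quantile normalization the brightest has 329 and 341.

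The mice differed too. On the first principal component of the 6 arrays, with 54.6% of the variance, the collagen I arrays lay at -81.5, -24.6 and -77.3 and the Matrigel arrays at 67.6, 74.9 and 40.8. The gels did not overlap there, and collagen I from mouse B lay nearest to Matrigel. The second component, with 21.0%, put both arrays of mouse C at -43.4 (collagen I) and -62.4 (Matrigel), and the other 4 between 12.4 and 54.5. Collagen I from mouse A and Matrigel from mouse C shared a slide, called slide 6, the only slide with both tumor gels. Collagen I from mouse B and Matrigel from mouse A were each alone on a slide, so a slide block takes no information from them. The remaining tumor arrays shared slides with normal arrays only. With slide as a block 1946 genes rose and 708 fell. A call lost there does not show an effect of the slide, because fewer tumor arrays inform that fit. Without collagen I from mouse A the genes called numbered 2744, and without Matrigel from mouse B 2895.

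Among the secreted proteins that rose, periostin (Postn), a matricellular protein that binds collagen I, stood at 4.47, 2.61 and 4.54 in collagen I, against 0.51, -0.51 and -0.04 in Matrigel. All 3 collagen I arrays lay above all 3 Matrigel arrays, with mouse B lowest in both gels. The rise was 3.89 ± 0.55 (limma adjusted p = 0.0019). Osteoprotegerin (Tnfrsf11b), the decoy receptor that captures RANKL, had levels of -1.54, -0.74 and -1.52 in collagen I and -4.53, -4.79 and -4.53 in Matrigel. It rose by 3.35 ± 0.37 (limma adjusted p = 0.00098), and the gap between the gels was far wider than the spread within either. The secreted Wnt-binding protein Sfrp2 was at -1.30, -1.55 and -0.84 in collagen I and -3.95, -4.58 and -3.67 in Matrigel, a rise of 2.84 ± 0.28 (limma adjusted p = 0.00069). Neuropeptide Y (Npy) was at -0.25, -0.82 and -1.04 against -4.29, -3.28 and -4.63, and rose by 3.36 ± 0.76 (limma adjusted p = 0.011). Tnfrsf11b, Sfrp2 and Npy lost their call under normexp background correction, while Postn kept its call in every alternative.

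Many probes at the upper end of the list are named for cDNA clones. Of the 12 genes with the greatest rises among those well above background on all 6 tumor arrays, 7 carry a clone name on the array, and RefSeq places some of these clones at genes whose other probes did not rise with them. One of the 7 that RefSeq lists under its clone name, 2310067E19Rik, was at 2.32, 0.89 and 1.70 in collagen I, against -2.86, -1.90 and -1.67 in Matrigel, a rise of 3.78 ± 0.51 (limma adjusted p = 0.0017). The other 5 are Postn, Tnfrsf11b, Npy, the collagenase Mmp13 and Erbb2ip, whose product Erbin is a scaffold that binds the receptor ErbB2. The Erbb2ip probe stood at -0.25, -1.57 and -0.17 in collagen I and -4.03, -4.08 and -4.09 in Matrigel, and 3 further Erbb2ip probes passed in the same direction. Such agreement was not general, because 1993 of the called genes had further probes and for 90 of them another probe passed the opposite way. The Wnt carrier Wls shows the scale of the problem: the probe under its older name Gpr177 rose by 4.12 ± 0.46 (limma adjusted p = 0.00098), and the probe under Wls by 0.73 ± 0.17 (limma adjusted p = 0.012; 0.059 with the mouse as a block). Normexp ended the calls of Erbb2ip and Gpr177, and slide as a block that of Wls.

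**Figure D2:**
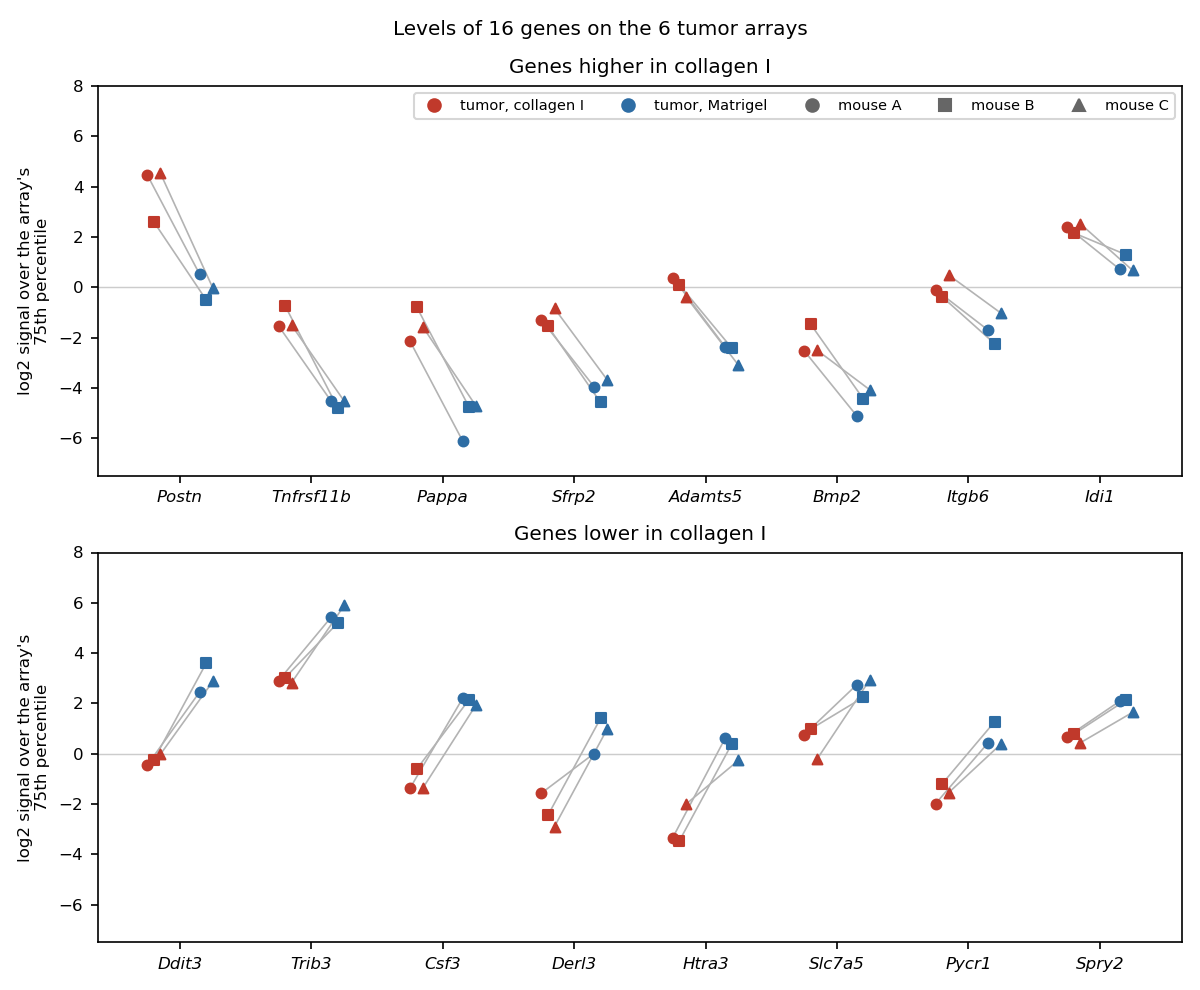
Level of 16 genes on each tumor array (log2 signal relative to the array's 75th percentile), collagen I left of Matrigel for each gene. Each mouse has 1 point per gel, and a line joins its points. For each gene the 3 collagen I points lie apart from the 3 Matrigel points, above them for Postn, Tnfrsf11b, Pappa, Sfrp2, Adamts5, Bmp2, Itgb6 and Idi1 and below them for the other 8.

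Proteases that cut matrix and growth factor carriers were among the genes that rose. Mmp13, an interstitial collagenase, was at 2.16, 2.64 and 5.03 in collagen I, against -0.24, 0.80 and 0.10 in Matrigel. Mouse C stood highest in collagen I and the gels did not overlap. It rose by 3.06 ± 0.70 (limma adjusted p = 0.011), and the difference in normal organoids was 3.26. The elastase Mmp12 rose by 2.58 ± 0.42 (limma adjusted p = 0.003). These were the only 2 of 17 matrix metalloproteinases that passed, where 15.8% of all genes rose, so the list as a whole did not stand out. The membrane-bound collagenase Mmp14 was at 0.39 ± 0.22. The aggrecanase Adamts5 was at 0.39, 0.10 and -0.37 in collagen I and -2.38, -2.42 and -3.10 in Matrigel, a rise of 2.67 ± 0.32 (limma adjusted p = 0.0013) that kept its call in every alternative. Slide as a block ended the calls of Mmp12 and Mmp13, and normexp that of Mmp12.

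Pappa, the protease that frees insulin-like growth factors from their binding proteins, was at -2.14, -0.77 and -1.60 in collagen I and -6.10, -4.77 and -4.70 in Matrigel. The rise was 3.69 ± 0.45 (limma adjusted p = 0.0013) with no overlap between the gels. Of 15 tested genes of the IGF axis 3 rose and 2 fell, shares near the 15.8% and 12.1% of all genes. The carrier Igfbp3 rose by 2.22 ± 0.46 (limma adjusted p = 0.0073). Igf1 itself was not well above background in Matrigel and was higher by at least 2.70-fold in the collagen gel (limma adjusted p = 0.024). The fall belonged to Stc2, a secreted inhibitor of PAPP-A, at 2.22, 2.49 and 2.31 in collagen I and 3.44, 3.31 and 3.99 in Matrigel, or -1.24 ± 0.28 (limma adjusted p = 0.01), and to the IGF2 scavenger Igf2r, at -0.80 ± 0.21 (limma adjusted p = 0.019). The receptor Igf1r did not pass, at -0.35 ± 0.23, while the mean over its probes was at 0.76 (limma adjusted p = 0.046). Igfbp5, the brightest of the group at 7.50 to 7.77 in collagen I and 6.76 to 7.30 in Matrigel, was at 0.52 ± 0.19 without a call. With 1 array left out the adjusted p reached 0.077 for Igf1, without collagen I from mouse C, and 0.065 for Igf2r, without Matrigel from mouse B. Under normexp all 5 of these genes, Pappa, Igfbp3, Igf1, Stc2 and Igf2r, lost their calls, and with slide as a block Igf1, Stc2 and Igf2r did. Igf1 and Igf2r also lost their calls under quantile normalization, cyclic loess and the authors' deposited values. The 3 rises and 2 falls of the list were 4 and 1 under quantile normalization.

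Receptors for the matrix were read by class. Of 8 tested fibronectin and RGD-binding integrin genes 4 rose and 1 fell, with medians of 0.88, 0.54 and 1.17 in mice A, B and C, against a median of -0.04 over all genes tested. Itgb6, which pairs with the alpha v chain, was at -0.10, -0.38 and 0.48 in collagen I and -1.71, -2.25 and -1.04 in Matrigel, a rise of 1.67 ± 0.33 (limma adjusted p = 0.0065). The alpha v chain Itgav rose by 0.98 ± 0.17 (limma adjusted p = 0.0034) and Itgb3 by 1.14 ± 0.29 (limma adjusted p = 0.017). Itgb8 rose by 1.30 ± 0.37 (limma adjusted p = 0.025), and with the mouse as a block it was at an adjusted p of 0.0504. Itga8 fell by 1.07 ± 0.31 (limma adjusted p = 0.026). Without collagen I from mouse A only 2 of these genes rose. The adjusted p was then 0.062 for Itgb3 and 0.095 for Itgb8, and that of Itga8 reached 0.081 without Matrigel from mouse A. Fibronectin (Fn1), the ligand of many of these receptors, stood at 0.78, 1.89 and 1.44 in collagen I, against -0.23, 0.31 and -0.20 in Matrigel, a rise of 1.41 ± 0.31 (limma adjusted p = 0.0094). Slide as a block ended the calls of Itgb6, Itga8 and Fn1, and normexp those of Itgb8 and Itga8. Itgb8 and Itga8 also lost their calls under quantile normalization and the authors' deposited values.

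Of 8 collagen receptor genes 1 passed. Itga11, the alpha chain of a collagen I-binding integrin, was at 1.49, 0.98 and 2.28 in collagen I and -0.34, 0.19 and -1.21 in Matrigel, a rise of 2.04 ± 0.40 (limma adjusted p = 0.0059). The epithelial collagen receptor chain Itga2 was at -0.12 ± 0.30, the shared partner Itgb1 at 0.52 ± 0.26 and the discoidin receptor Ddr1 at -0.29 ± 0.19, none with a call. With slide as a block 2 of the 8 rose.

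Among laminin receptor and basement membrane genes, read by their brightest probes, only falls passed. Of 7 laminin receptor genes 3 fell, with a median of -0.55. Their median level lay in the brightest bin of genes, in which 3.45% rose and 26.5% fell. Itga3, a laminin-332 receptor chain, was at 1.54, 2.57 and 2.49 in collagen I, against 3.54, 4.11 and 3.34 in Matrigel, and fell by 1.47 ± 0.29 (limma adjusted p = 0.006). It kept that call in every alternative, and 2 further Itga3 probes passed the same way. The hemidesmosome chain Itgb4 fell by 0.97 ± 0.24 (limma adjusted p = 0.015) and Itga7 by 1.22 ± 0.37 (limma adjusted p = 0.032; 0.054 with the mouse as a block). The chain Itga6 was at 0.16 ± 0.17 on its brightest probe. Its other probes ran from 0.29 to 2.58, and 1 of them passed upward. The 3 falls became 1 without collagen I from mouse A or without Matrigel from mouse B. Dropping the collagen I array gave an adjusted p of 0.061 for Itgb4 and 0.11 for Itga7. Normexp also ended the calls of Itgb4 and Itga7, and quantile normalization, cyclic loess and the authors' deposited values that of Itgb4.

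Of 21 basement membrane genes 5 fell and none rose, with medians of -1.06, -0.61 and -0.17 in mice A, B and C. Of all genes 12.1% fell, of those in the second brightest bin 15.9% and of those in the brightest 26.5%. The count is thus not set apart from that of bright genes in general. Col18a1, the source of endostatin, stood at 5.15, 5.69 and 5.94 in collagen I, against 6.83, 7.32 and 6.51 in Matrigel, a fall of 1.30 ± 0.28 (limma adjusted p = 0.0082). The laminin chains Lamb2 and Lama4 fell by 0.95 ± 0.17 and 0.94 ± 0.17 (limma adjusted p = 0.0044 and 0.0048), and Lamc1 by 0.75 ± 0.19 (limma adjusted p = 0.017). The laminin-332 chain Lamb3 fell by 1.1 ± 0.36 (limma adjusted p = 0.041; 0.064 with the mouse as a block). Other Lama4 probes disagreed, with 1 passing upward and 2 downward. Without collagen I from mouse A there were 3 falls, and the adjusted p was 0.066 for Lamc1 and 0.15 for Lamb3. Normexp ended the calls of Lama4, Lamc1 and Lamb3, and slide as a block those of Lama4 and Lamc1. Quantile normalization and cyclic loess ended those of Lamc1 and Lamb3, and the authors' deposited values those of Lamc1, Lamb3 and Col18a1.

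Enzymes that modify collagen fell in 5 of 17 cases and rose in 1. The lysyl hydroxylase Plod1 was at 1.07, 1.27 and 1.03 in collagen I and 2.22, 2.51 and 2.35 in Matrigel, a fall of 1.24 ± 0.20 (limma adjusted p = 0.0031). Its relative Plod3 fell by 0.99 ± 0.21 (limma adjusted p = 0.0074), and the crosslinking transglutaminase Tgm2 by 1.52 ± 0.24 (limma adjusted p = 0.0028). The lysyl oxidase Lox ran the other way and was not well above background on any Matrigel array, so that collagen I exceeded Matrigel by at least 1.12-fold (limma adjusted p = 0.018). The adjusted p of Lox was 0.061 without collagen I from mouse A. Normexp ended the calls of Plod3 and Lox, and slide as a block that of Lox.

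Trib3 and Ddit3, 2 of the 3 falls with the smallest adjusted p, belong to the integrated stress response, in which phosphorylation of eIF2 alpha slows translation while the factor ATF4 is made and switches on genes for amino acid supply and stress. ATF4 partners bind C/EBP-ATF response elements, and misfolded protein in the endoplasmic reticulum acts through ATF6 and XBP1 on a separate ER stress response element. Both elements were searched on both strands in the 250 bases before each gene's start, in RefSeq promoters of GRCm38.p6. The first, TGATGNAA, was in 5 of 15 stress response promoters and 5 of 21 promoters of tRNA synthetase and amino acid genes, against 3.91% of all 27025 genes with a promoter. Among the genes that fell it was in 3 of 11 and 3 of 16, and it is also in the promoters of Atf3, Vldlr, Tars and Slc7a11, list members without a call. The second, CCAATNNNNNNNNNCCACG, was in 9 of 21 ER chaperone promoters, against 0.130% of all genes. A match describes the letters only and shows neither binding nor a cause. The fallen genes Asns, Chac1, Nupr1, Pycr1, Aars and Gars, which hold the first element, are shown next, 5′ to 3′ on the strand of the gene and with the match in capitals, and TTGCATCA and TTTCATCA are matches on the opposite strand.
Asns (chr6:7693210-7693258, minus strand): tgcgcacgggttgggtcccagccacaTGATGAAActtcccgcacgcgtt
Chac1 (chr2:119351023-119351082, plus strand): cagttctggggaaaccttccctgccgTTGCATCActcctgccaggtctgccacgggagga
Nupr1 (chr7:126625547-126625606, minus strand): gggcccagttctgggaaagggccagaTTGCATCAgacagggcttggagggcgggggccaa
Pycr1 (chr11:120643818-120643877, minus strand): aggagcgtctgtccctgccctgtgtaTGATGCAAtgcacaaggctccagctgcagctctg
Aars (chr8:111033704-111033763, plus strand): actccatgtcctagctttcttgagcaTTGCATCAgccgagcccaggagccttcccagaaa
Gars (chr6:55037945-55038000, plus strand): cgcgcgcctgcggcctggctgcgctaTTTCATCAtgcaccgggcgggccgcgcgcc

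The 6 fallen ER chaperone and quality control genes that hold the second element are shown in the same way, since their order CCAAT to CCACG, or CGTGG to ATTGG when read on the opposite strand, recurs with different letters between. With the mouse as a block Syvn1 and Calr, and Nupr1 above, were at limma adjusted p of 0.059, 0.083 and 0.063, and without Matrigel from mouse B at 0.068, 0.092 and 0.073. These 3 genes, Hspa5 and Pdia6 lost their calls both under normexp and with slide as a block, and Aars did under normexp. These 3 and Hspa5 also lost them under quantile normalization, cyclic loess and the authors' deposited values, and Aars under the last of these. The mean over probes ended the calls of Pdia6 and Aars, and other Pdia6 probes disagreed, with 1 passing upward and 2 downward.
Hspa5 (chr2:34772005-34772063, plus strand): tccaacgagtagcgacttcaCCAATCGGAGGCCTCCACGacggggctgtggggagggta
Pdia6 (chr12:17266471-17266529, plus strand): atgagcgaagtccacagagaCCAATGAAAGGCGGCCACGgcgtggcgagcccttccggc
Syvn1 (chr19:6046512-6046570, plus strand): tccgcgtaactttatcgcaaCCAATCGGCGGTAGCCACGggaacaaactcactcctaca
Derl3 (chr10:75893222-75893280, plus strand): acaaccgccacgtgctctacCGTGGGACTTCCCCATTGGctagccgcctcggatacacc
Creld2 (chr15:88819500-88819558, plus strand): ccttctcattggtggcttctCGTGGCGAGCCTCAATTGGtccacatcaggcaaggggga
Calr (chr8:84847055-84847113, minus strand): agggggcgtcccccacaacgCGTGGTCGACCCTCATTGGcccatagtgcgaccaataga

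Of the 16 integrated stress response genes tested 12 fell in collagen I and none rose. Ddit3, which encodes the factor CHOP, was at -0.46, -0.25 and -0.03 in collagen I, against 2.46, 3.61 and 2.88 in Matrigel. It fell by 3.23 ± 0.26 (limma adjusted p = 0.00023), and the gap between the gels was wider than either group's range. Trib3, a pseudokinase induced by ATF4 and CHOP, was at 2.91, 3.02 and 2.83 in collagen I and 5.43, 5.20 and 5.90 in Matrigel, a fall of 2.59 ± 0.19. The glutathione-degrading enzyme Chac1 fell by 2.12 ± 0.31, and Atf5, a factor related to ATF4, by 1.66 ± 0.26 (limma adjusted p = 0.0026). Atf4 mRNA stood at 1.96, 2.61 and 2.45 against 3.61, 3.53 and 3.86, a fall of 1.33 ± 0.19 (limma adjusted p = 0.0019). Asparagine synthetase, Asns, which carries the element shown above, was at 4.68, 4.96 and 4.74 in collagen I and 6.33, 6.05 and 6.61 in Matrigel, a fall of 1.53 ± 0.21 (limma adjusted p = 0.0018). The 4 that did not pass were the eIF2 alpha kinase Eif2ak3 at 0.17 ± 0.18, Vldlr at -0.31 ± 0.21, Atf3 at -0.80 ± 0.34 and Ddit4 at -1.49 ± 0.58. The list median was -1.22, with -1.35, -1.0 and -1.31 in mice A, B and C and -1.81 within slide 6. Under normexp, quantile normalization, the mouse block and the slide block 7 to 9 of these genes fell, and with 1 array left out 8 to 13. The call of Atf5 was lost with slide as a block.

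Genes of amino acid supply were also lower in collagen I. Of 29 tRNA synthetase and amino acid genes 22 fell and none rose, with a median of -1.14, and of -1.07, -0.80 and -1.47 in mice A, B and C. Among the transporters, Slc7a5, which brings in leucine and other large neutral amino acids, was at 0.76, 0.98 and -0.20 in collagen I, against 2.74, 2.24 and 2.95 in Matrigel. It fell by 2.13 ± 0.31 (limma adjusted p = 0.0021), and its partner chain Slc3a2 by 1.44 ± 0.21 (limma adjusted p = 0.002). The glycine transporter Slc6a9 was at 2.20, 2.97 and 3.15 in collagen I and 4.66, 4.62 and 4.93 in Matrigel, a fall of 1.96 ± 0.24 (limma adjusted p = 0.0013). The glutamine transporter Slc1a5 fell by 1.51 ± 0.23 (limma adjusted p = 0.0022). In each the gels stood apart.

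Enzymes of proline, serine and one-carbon metabolism moved the same way. Pycr1, the last step of proline synthesis, was at -1.98, -1.19 and -1.54 in collagen I and 0.44, 1.28 and 0.40 in Matrigel, a fall of 2.28 ± 0.27 (limma adjusted p = 0.0012). Aldh18a1, an earlier step of the same path, fell by 1.68. The mitochondrial one-carbon enzyme Mthfd2 was at -1.35, -0.13 and -1.13 against 1.62, 0.68 and 1.37, and fell by 2.09 ± 0.32. Its neighbour in the path Shmt2 fell by 1.31 ± 0.27 (limma adjusted p = 0.0069), and the serine synthesis enzymes Psat1, Phgdh and Psph fell by 1.18, 1.01 and 0.78, the last at an adjusted p of 0.057 with the mouse as a block. Without Matrigel from mouse B the adjusted p of Psat1 was 0.067, and without collagen I from mouse A that of Psph was 0.067. Normexp ended the calls of Psat1, Phgdh and Psph, and slide as a block those of Psat1 and Psph. The authors' deposited values also ended the calls of Psat1, Phgdh and Psph, and quantile normalization those of Phgdh and Psph. These enzymes and transporters kept their direction in every mouse named here.

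The synthetases that charge tRNA did not fall as one. Yars was at 1.88, 2.32 and 2.16 in collagen I, against 3.42, 3.32 and 3.78 in Matrigel, a fall of 1.39 ± 0.18 (limma adjusted p = 0.0014). Cars, Mars1, Aars, Sars, Gars and Wars fell by 1.25, 1.14, 1.13, 1.12, 1.1 and 0.68, and Wars was at an adjusted p of 0.071 with the mouse as a block and 0.077 without collagen I from mouse A, and lost its call under normexp and with slide as a block. Quantile normalization and the authors' deposited values ended the call of Wars too. Lars at -0.02 ± 0.22, Tars at -0.22 ± 0.21, Eprs at -0.32 ± 0.34, Nars at -0.32 ± 0.21 and Iars at -0.60 ± 0.24 did not pass. The other probes of Iars ran from -0.58 to 2.81, and 1 of them passed upward. The amino acid transporters Slc38a2, at 0.06 ± 0.21, and Slc7a11, at -0.84 ± 0.75, did not pass either. Of the list 19 genes fell under quantile normalization, 18 with the mouse as a block, 18 with slide as a block and 19 to 21 with any 1 array left out.

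In the ER chaperone and Xbp1 list 15 of 24 genes fell and none rose, with a median of -0.69, and of -0.44, -0.93 and -0.81 in mice A, B and C. Derl3, part of the channel that exports misfolded proteins from the ER, was at -1.57, -2.44 and -2.89 in collagen I, against 0.01, 1.40 and 0.98 in Matrigel. It fell by 3.10 ± 0.39 (limma adjusted p = 0.0014). Xbp1, the factor of this branch, was at 4.71, 4.39 and 3.82 in collagen I and 5.38, 5.69 and 5.59 in Matrigel, a fall of 1.25 ± 0.24 (limma adjusted p = 0.0055). The chaperone Hyou1 fell by 1.38 ± 0.23 and the ER membrane protein Herpud1 by 1.34 ± 0.20 (limma adjusted p = 0.003 and 0.0021). The BiP gene Hspa5 was at 5.28, 4.83 and 4.87 against 5.78, 5.77 and 5.51, a fall of 0.69 ± 0.19 (limma adjusted p = 0.022; 0.067 without Matrigel from mouse B). Among those without a call, Hsp90b1, Canx and Pdia3 stood at -0.08 ± 0.28, -0.03 ± 0.18 and -0.02 ± 0.27, and the promoters of Hsp90b1 and Canx also hold the ER element. Without collagen I from mouse C or Matrigel from mouse B 9 genes of the list fell, under quantile normalization 11, under normexp 5, and with slide as a block 4, when Xbp1 lost its call too.

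**Figure D3:**
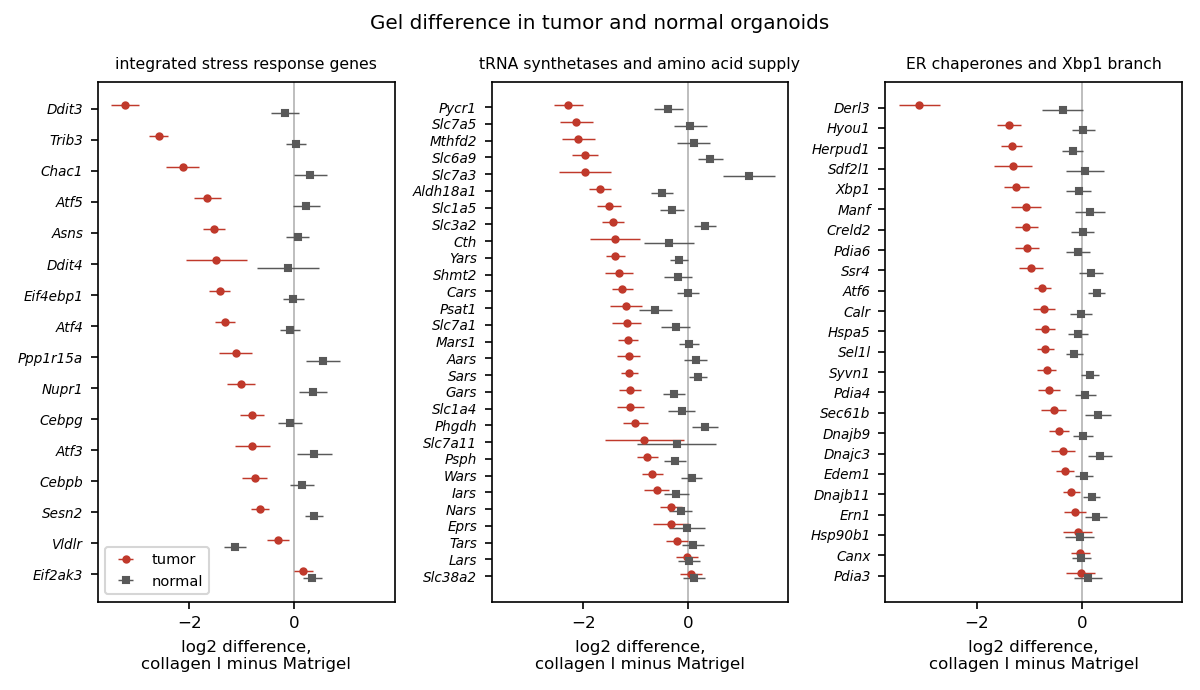
Collagen I minus Matrigel difference (log2) of each tested gene of the integrated stress response, tRNA synthetase and amino acid, and ER chaperone lists, in tumor organoids (red) and normal organoids (grey), with bars for the standard error of the limma fit. The red points of Ddit3, Trib3, Chac1, Pycr1, Slc7a5 and Derl3 lie below -2, and the grey points of the same lists have medians of 0.10, -0.02 and 0.03.

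FGF2 was present in both gels, and of 17 genes that FGF and ERK signalling induces or that feed back on it, 9 fell and none rose, with a median of -0.97. Spry2, an inhibitor of receptor tyrosine kinase signalling, was at 0.67, 0.78 and 0.43 in collagen I, against 2.09, 2.14 and 1.65 in Matrigel, a fall of 1.33 ± 0.19 (limma adjusted p = 0.0019). The ERK phosphatase Dusp6 was at 5.27, 5.70 and 4.72 in collagen I and 7.05, 6.97 and 6.11 in Matrigel, and fell by 1.48 ± 0.30 (limma adjusted p = 0.0066). The ETS factors Etv5 and Etv4 fell by 1.33 ± 0.39 and 1.27 ± 0.31 (limma adjusted p = 0.028 and 0.015). Genes of the same list without a call include Egr1 at 0.14 ± 0.30 and Spred1 at 0.43 ± 0.22, and the median was -1.17 in mouse A against -0.44 and -0.51 in mice B and C. The count was 4 without collagen I from mouse A, 3 without Matrigel from mouse B and 4 with slide as a block. The adjusted p reached 0.090 for Etv5 without Matrigel from mouse B and 0.059 for Etv4 without collagen I from mouse A. Dusp6, Etv5 and Etv4 lost their calls with slide as a block, and Etv5 and Etv4 under normexp.

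Of 12 EGF receptor and ligand genes 1 rose and 3 fell. Betacellulin (Btc) was not well above background in Matrigel and was higher by at least 2.32-fold in the collagen gel (limma adjusted p = 0.0026). The ligands Hbegf and Nrg1 fell by 1.46 ± 0.41 and 1.30 ± 0.33 (limma adjusted p = 0.023 and 0.016), so ligands of this receptor family lay on both sides. The cell cycle entry genes Ccnd1 and Myc fell by 1.14 ± 0.31 and 0.84 ± 0.26 (limma adjusted p = 0.022 and 0.034). None of Hbegf, Ccnd1 and Myc passed under quantile normalization or with the authors' deposited values. Without Matrigel from mouse B the adjusted p was 0.063 for Hbegf and 0.078 for Ccnd1, and without collagen I from mouse A it was 0.066 for Nrg1 and 0.13 for Myc. Normexp ended the calls of Btc, Hbegf, Ccnd1 and Myc, and slide as a block those of Hbegf, Ccnd1 and Myc, which left 1 fall in the receptor and ligand list.

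Granulocyte colony-stimulating factor (Csf3) had the smallest adjusted p of the cytokines. It was at -1.37, -0.62 and -1.35 in collagen I, against 2.20, 2.16 and 1.92 in Matrigel, and fell by 3.21 ± 0.24 (limma adjusted p = 0.00021). Of 16 colony-stimulating factor and interleukin genes 2 rose and 2 fell. Il19, a cytokine of the IL-10 family, was at -5.47, -5.02 and -6.86 in collagen I and -2.85, -1.90 and -0.38 in Matrigel, a fall of 4.07 ± 0.86 (limma adjusted p = 0.0077). Csf1 and Il18 rose by 0.71 ± 0.19 and 1.28 ± 0.37 (limma adjusted p = 0.019 and 0.028), and with the mouse as a block they were at adjusted p of 0.057 and 0.058. With 1 array left out the adjusted p reached 0.066 for Csf1, without Matrigel from mouse B, and 0.087 for Il18, without collagen I from mouse C. With slide as a block none of the list rose (limma) and 4 fell, and normexp also ended the call of Il18. Quantile normalization, cyclic loess and the authors' deposited values ended the call of Il18 too.

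The chemokines split as evenly, with 2 of 22 higher and 2 lower. Ccl5, which attracts T cells and monocytes, was at 0.48, 0.47 and 0.56 in collagen I, against 3.04, 3.57 and 2.05 in Matrigel, a fall of 2.38 ± 0.40 (limma adjusted p = 0.0034) that every alternative kept. Ccl20 fell by 1.46 ± 0.40 (limma adjusted p = 0.021). The monocyte attractant Ccl2 was at 2.17, 2.27 and 1.01 in collagen I and -0.30, 0.52 and -0.25 in Matrigel, a rise of 1.83 ± 0.48 (limma adjusted p = 0.019), and its neighbour Ccl7 rose by 1.24 ± 0.41 (limma adjusted p = 0.044; 0.11 with the mouse as a block). With 1 array left out the adjusted p reached 0.071 for Ccl2, 0.073 for Ccl20 and 0.15 for Ccl7, each without collagen I from mouse A. Slide as a block left only the fall of Ccl5, and normexp ended the call of Ccl7. Quantile normalization, cyclic loess and the authors' deposited values ended the call of Ccl7 too.

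In the TNF superfamily 2 of 16 genes rose and 4 fell. Beside Tnfrsf11b, given above, the death receptor Fas rose by 0.85 ± 0.19 (limma adjusted p = 0.01). Both TNF receptors fell. Tnfrsf1b was at -1.53, -0.39 and 0.30 in collagen I, against 1.33, 1.63 and 1.48 in Matrigel, a fall of 2.02 ± 0.38 (limma adjusted p = 0.0053), and Tnfrsf1a fell by 1.16 ± 0.25 (limma adjusted p = 0.0087). The ligand lymphotoxin alpha (Lta) fell by 1.42 ± 0.24 (limma adjusted p = 0.0035). Of 21 acute-phase and mucosal defense genes 1 rose and 5 fell. Among them the chitinase-like protein Chil1 was at 5.35, 5.48 and 5.77 in collagen I and 7.26, 7.02 and 6.75 in Matrigel, a fall of 1.48 ± 0.20 (limma adjusted p = 0.0015). The endotoxin carrier Lbp and the siderophore binder Lcn2 fell by 1.66 ± 0.38 and 1.21 ± 0.26 (limma adjusted p = 0.011 and 0.0085). The 1 rise and 5 falls of the defense genes were 3 and 5 under quantile normalization, 1 and 2 under normexp, and 1 and 1 with slide as a block. Slide as a block and normexp each ended the calls of Tnfrsf1a, Lbp and Lcn2, and slide as a block that of Fas, with 1 rise and 4 falls left in the TNF list.

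The other genes with the greatest falls came from several families. Bpifb1, a secreted airway and mucosal protein, was at -3.55, -3.31 and -4.07 in collagen I and -0.01, 1.20 and -0.64 in Matrigel, a fall of 3.82 ± 0.63 (limma adjusted p = 0.003). The serine protease Htra3 was at -3.33, -3.46 and -2.01 against 0.63, 0.40 and -0.26, a fall of 3.19 ± 0.37 (limma adjusted p = 0.0012). In both genes the gels stood apart, and every alternative kept the call. The factors Bhlha15 (MIST1) and Pou2af1, known from secretory cells and B cells, fell by 3.50 ± 0.61 and 3.08 ± 0.56 (limma adjusted p = 0.0036 and 0.0044), with mouse C lowest in both gels for each. The Wnt receptor Fzd9 fell by 3.31 ± 0.47, the choline and heme transporter family member Flvcr2 by 3.04 ± 0.38 and the transcription factor Sox7 by 3.01 ± 0.48 (limma adjusted p = 0.0019, 0.0014 and 0.0028). Bhlha15, Pou2af1 and Fzd9 lost their calls with slide as a block.

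Genes measured in only 1 gel were mostly higher in collagen I. Among annotated ones, the carboxylesterase Ces1g was at least 5.73-fold higher (limma adjusted p = 0.013), and Ccn4, a matricellular Wnt target, at least 4.47-fold (limma adjusted p = 0.008). The oxytocin receptor Oxtr was at least 3.24-fold higher, with levels of -3.08, -2.90 and -4.74 against -6.97, -5.32 and -7.12 (limma adjusted p = 0.0044). The reverse held for Fcer2a, the low-affinity IgE receptor CD23, which was at -6.83, -6.65 and -6.21 in collagen I and -1.55, 0.00 and -4.04 in Matrigel. Collagen I was lower by at least 16.3-fold (limma adjusted p = 0.0031), with mouse C nearest to the collagen I arrays. Trim15 was at least 2.69-fold lower (limma adjusted p = 0.0057). A gene not well above background has only a bound there, which the adjusted p does not test, and the Matrigel arrays were the dimmer ones. Under normexp background correction, which treats dim signal differently, Ccn4 and Oxtr were at -0.15 and -0.29, the opposite sign, as were Igf1 at -0.54, Lox at -0.84 and Btc at -0.72. The 50 units that this correction adds weigh more on the dimmer Matrigel arrays, so these signs do not settle a direction. Ces1g and Trim15 lost their calls under normexp too, and Ccn4 and Oxtr with slide as a block.

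TGF-beta and BMP genes held 2 rises and 5 falls among 24. Bmp2 was at -2.53, -1.48 and -2.51 in collagen I, against -5.11, -4.44 and -4.08 in Matrigel, a rise of 2.37 ± 0.33 (limma adjusted p = 0.0019). The SMAD repressor Skil rose by 1.05 ± 0.32 (limma adjusted p = 0.035). Ltbp3, which stores latent TGF-beta in the matrix, fell by 0.90 ± 0.15 (limma adjusted p = 0.0031). Tgfb1 fell by 0.83 ± 0.23 (limma adjusted p = 0.023; 0.082 with the mouse as a block). Under quantile normalization the split was 4 rises and 2 falls, with the mouse as a block 3 and 1, and with slide as a block 1 and 2. Normexp ended the calls of Bmp2, Skil, Ltbp3 and Tgfb1, and slide as a block those of Skil and Tgfb1. Ltbp3 also lost its call under quantile normalization and the authors' deposited values. Without Matrigel from mouse B the adjusted p of Skil was 0.13, and without collagen I from mouse A that of Tgfb1 was 0.065.

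Guidance receptors and actin genes moved in both directions. Of 25 semaphorin, plexin, ephrin and Eph genes 3 rose and 3 fell. Epha2 was at 3.81, 4.40 and 3.94 in collagen I, against 5.68, 6.02 and 5.07 in Matrigel, a fall of 1.54 ± 0.26 (limma adjusted p = 0.0035) in every alternative. Its relative Epha4 was at 0.46, -0.11 and 0.56 in collagen I and -1.08, -1.56 and -0.64 in Matrigel, a rise of 1.40 ± 0.26 (limma adjusted p = 0.0047). Of 29 actin assembly and motility genes 5 rose and 2 fell. Arpc5, a subunit of the Arp2/3 complex that nucleates branched actin, was at 2.92, 3.09 and 2.96 in collagen I and 1.90, 2.01 and 1.93 in Matrigel, a rise of 1.05 ± 0.15 (limma adjusted p = 0.0021). The gels lay about 1 log2 unit apart with almost no spread, and every alternative kept the call. Actr2, another subunit of the complex, rose by 1.05 ± 0.20, and thymosin beta 4 (Tmsb4x), which sequesters actin monomers, by 1.28 ± 0.28 (limma adjusted p = 0.0055 and 0.0088). Under quantile normalization 8 of the actin genes rose and none fell. With slide as a block none of the guidance genes rose (limma) and 2 fell, 3 actin genes rose and none fell, and Epha4 and Tmsb4x lost their calls.

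**Figure D4:**
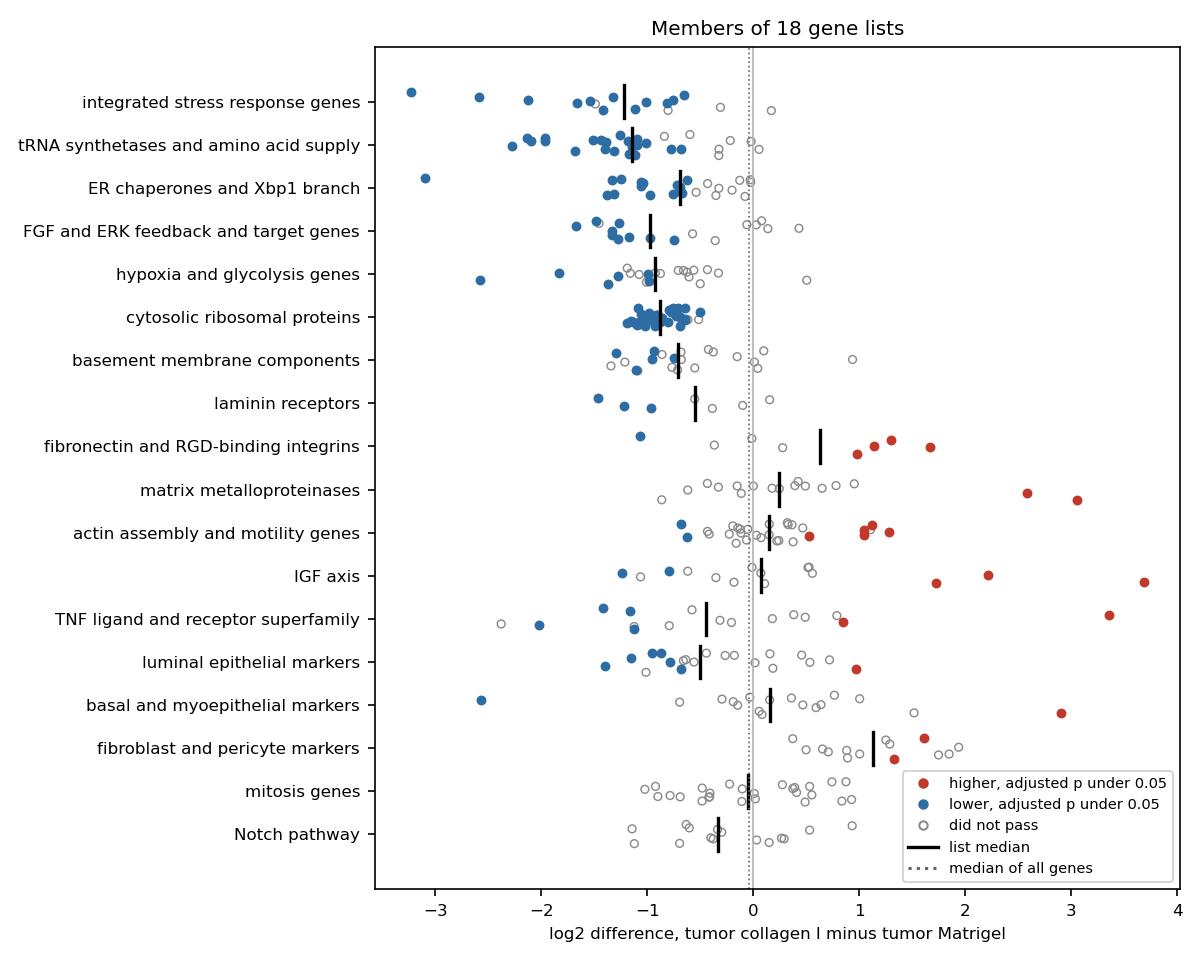
Collagen I minus Matrigel difference (log2) of every tested member of 18 gene lists, 1 point per gene, with a bar at each list's median and a dotted line at the median of all genes, -0.04. The cytosolic ribosomal proteins form a narrow band from -1.19 to -0.50, and the stress response and amino acid lists spread to -3.23 and -2.28.

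Cytosolic ribosomal protein genes formed the tightest group. Of 43 genes 41 fell and none rose, between -1.19 for Rpl28 and -0.50, with a median of -0.88 and of -0.86, -1.01 and -0.74 in mice A, B and C. Rpl28 was at 7.60, 7.70 and 7.71 in collagen I, against 8.74, 8.99 and 8.85 in Matrigel. Only Rpl14, at -0.51 ± 0.20, and Rpl30, at -0.62 ± 0.31, did not pass. This fall depended on the scaling, because under quantile normalization 3 genes fell with a median of -0.13, and under cyclic loess 6 with a median of -0.16. Slide as a block left 6 falls, and dropping collagen I from mouse A left 27. Of 38 mitochondrial ribosomal protein genes 6 fell, and of 51 nuclear-encoded oxidative phosphorylation genes 10. Of all genes 12.1% fell, and of those in the brightest bin 26.5%. Under quantile normalization 1 mitochondrial ribosomal protein gene fell, and 5 of the oxidative phosphorylation genes rose and 3 fell. With slide as a block 1 and 0 genes of these lists fell (limma).

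The counts of other housekeeping groups are set beside the brightest bin of genes, in which 26.5% fell. Of 37 lysosomal genes 1 rose and 8 fell, led by Npc2, the cholesterol carrier of the lysosome, at -1.26 ± 0.25 (limma adjusted p = 0.0062), under quantile normalization 4 rose and 4 fell, and with slide as a block 1 and 2. Of 27 glutathione and antioxidant genes 8 fell, with Gstm1 at -1.74 ± 0.34 and heme oxygenase (Hmox1) at -1.48 ± 0.35 (limma adjusted p = 0.0058 and 0.012; Hmox1 0.051 without collagen I from mouse A), and under quantile normalization 2 rose and 4 fell. With slide as a block none of them fell (limma). Of 31 proteasome subunits 2 rose and 1 fell, with a median of -0.07, while under quantile normalization 8 rose and none fell, and with slide as a block none passed (limma). Psmd6 rose by 0.85 ± 0.18 (limma adjusted p = 0.0074). Slide as a block ended the calls of Gstm1, Hmox1 and Psmd6, and normexp that of Hmox1. Of 26 cholesterol and fatty acid synthesis genes 2 rose. Idi1, which makes the activated isoprene unit, was at 2.40, 2.16 and 2.53 in collagen I, against 0.72, 1.29 and 0.67 in Matrigel, a rise of 1.47 ± 0.22 (limma adjusted p = 0.0024), and in normal organoids its difference was -1.19.

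Hypoxia and glycolysis genes had 6 falls among 21 and no rise, with a median of -0.92. Adrenomedullin (Adm), a HIF target, was at -0.11, 1.45 and 1.83 in collagen I, against 3.16, 4.16 and 3.59 in Matrigel, a fall of 2.58 ± 0.67 (limma adjusted p = 0.018). Hexokinase 2 (Hk2) fell by 1.37 ± 0.37 (limma adjusted p = 0.02). Dropping collagen I from mouse A gave an adjusted p of 0.070 for Adm and 0.075 for Hk2. Normexp, quantile normalization and the authors' deposited values also ended the call of Hk2. The count was unstable: 1 fell without collagen I from mouse A, 0 without Matrigel from mouse B (limma), 3 without Matrigel from mouse C and 1 under quantile normalization, while 11 fell without the normal Matrigel array of mouse A. The list's median in normal organoids was -0.63.

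The cell types of the fragments were read from marker lists. All 20 luminal markers and 17 basal markers tested were well above background on all collagen I arrays, as were 20 and 16 on all Matrigel arrays. The summed level of the luminal markers was 952 to 1141 in collagen I and 1420 to 2058 in Matrigel, without overlap, and that of the basal markers 332 to 943 and 193 to 558. Of the 20 luminal markers 1 rose and 6 fell. Their median level, 3.43 to 4.22 on the tumor arrays, lay in the brightest bin of genes, in which 3.45% rose and 26.5% fell. The count of falls is thus near that of genes as bright. Under quantile normalization 2 of the markers rose and 3 fell, and with slide as a block 1 fell. The ETS factor Elf3 was at -1.65, -1.23 and -1.65 in collagen I, against -0.32, 0.28 and -0.29 in Matrigel, a fall of 1.40 ± 0.21 (limma adjusted p = 0.0021) that held in every alternative. The keratin Krt18 fell by 0.95 ± 0.19 (limma adjusted p = 0.006) and its partner Krt8 by 0.68 ± 0.23 (limma adjusted p = 0.049; 0.055 with the mouse as a block). Under quantile normalization Krt8 was at 0.090, the opposite sign, so its direction depends on the scaling, and without Matrigel from mouse B its adjusted p was 0.17. Krt18 and Krt8 lost their calls with slide as a block, and Krt8 under normexp. Both also lost them under quantile normalization, cyclic loess and the authors' deposited values. Fewer luminal cells and less RNA of these genes per cell cannot be told apart in such samples.

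Basal and mesenchymal markers showed no common shift. Krt14 at 0.64 ± 0.75, Krt5 at 0.47 ± 0.63 and Trp63 at 0.08 ± 0.32 did not pass, nor did E-cadherin (Cdh1) at 0.19 ± 0.46, vimentin (Vim) at 0.14 ± 0.55, Snai2 at 0.55 ± 0.30, Twist1 at -0.27 ± 0.85 or Zeb1 at 0.95 ± 0.42. Of 16 EMT factors and mesenchymal markers 2 rose and 3 fell. Snai1, a repressor of E-cadherin, was at -0.84, -0.09 and -0.62 in collagen I, against 1.1, 1.84 and 0.11 in Matrigel, a fall of 1.53 ± 0.37 (limma adjusted p = 0.013). The adjusted p of Snai1 was 0.052 without collagen I from mouse A. Cdh11 fell by 1.04 ± 0.25 on its brightest probe (limma adjusted p = 0.013), while another of its probes passed upward and the mean over probes was 0.98. Smooth muscle actin (Acta2) was at -0.15 ± 0.17, and the mean over its probes at 1.46 (limma adjusted p = 0.0035), so no direction is given for either gene. Krt10, a suprabasal keratin, was at 1.67, 0.61 and 1.14 in collagen I and -0.36, -0.30 and -0.26 in Matrigel, a rise of 1.45 ± 0.25 (limma adjusted p = 0.0034). With slide as a block 1 gene of the EMT list rose and none fell (limma).

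Markers of cells other than epithelium were dim by comparison. The 14 fibroblast and pericyte markers summed to 6.16 to 11.4 in collagen I and 4.54 to 5.79 in Matrigel, and 10 and 9 of them were well above background on all 3 arrays, with 4 on no Matrigel array. Their median difference was 1.13, or 0.68 with the genes dim in Matrigel at their bound. The markers Fbn1 and Pdgfra rose by 1.61 ± 0.41 and 1.33 ± 0.40 (limma adjusted p = 0.017 and 0.031), and with the mouse as a block 6 of the 14 rose, but under quantile normalization and with slide as a block none did (limma). Under normexp correction Fbn1 and Pdgfra were at -0.71 and -0.18, the opposite sign. With 1 array left out the adjusted p reached 0.069 for Fbn1, without Matrigel from mouse B, and 0.12 for Pdgfra, without collagen I from mouse A. The type I collagen genes Col1a1 and Col1a2, at 0.65 ± 0.61 and 0.50 ± 0.64, and Dcn, at 0.88 ± 0.73, did not pass. The share of these markers that rose, 2 of 14, is near that of all genes. Their summed level was higher in collagen I without overlap, as were Postn, Sfrp2, Lox, Itga11 and Igf1, and the part of such cells in those rises was not tested.

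Leukocyte markers summed to 31.9 to 69.0 in collagen I and 44.7 to 68.0 in Matrigel, with overlap, and 1 of 13 fell. That was Cd68, a macrophage lysosomal protein, at -2.01, -1.39 and -0.51 in collagen I, against 1.27, 2.05 and 1.52 in Matrigel, or -2.92 ± 0.43 (limma adjusted p = 0.0021). The pan-leukocyte gene Ptprc was well above background on none of the 6 arrays by the probe used and on 1 collagen I array by any of its probes, and Csf1r was at -0.84 ± 0.63 without a call. Endothelial markers summed to 2.24 to 2.59 and 2.12 to 3.13, with Pecam1 at -5.02, -6.90 and -5.87 against -5.11, -6.47 and -4.83. Of 12, Emcn, Robo4 and Tie1 fell, by 2.21 ± 0.62, 1.56 ± 0.25 and 1.25 ± 0.40 (limma adjusted p = 0.024, 0.003 and 0.041). With the mouse as a block the adjusted p of Tie1 was 0.076, and without Matrigel from mouse A 1 endothelial marker fell and Emcn was at 0.072. The adjusted p of Tie1 reached 0.14 without collagen I from mouse A. With slide as a block no endothelial or leukocyte marker passed (limma), under quantile normalization 5 endothelial markers fell, and normexp ended the call of Tie1. Tie1 also lost its call under quantile normalization and the authors' deposited values. No adipocyte marker of 5 passed by limma, with sums of 1.49 to 3.73 and 2.87 to 3.99. Sums are linear signals in units of the 75th percentile.

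Proliferation and interferon genes had medians of opposite sign in different mice. None of 26 mitosis genes passed by limma, but 20 and 18 of them were higher in collagen I in mice A and B and 0 in mouse C, with medians of 0.41, 0.35 and -1.06. The proliferation marker Mki67 was at 3.67, 1.98 and 1.81 in collagen I and 2.01, 2.09 and 2.15 in Matrigel, with overlap. DNA replication genes, with 2 of 27 higher and 2 lower, had medians of 0.42, 0.29 and -0.76. The 24 interferon-stimulated genes, 1 of them higher, had medians of 0.37, 0.20 and -0.80. Without collagen I from mouse C 4 mitosis genes rose. With 1 pair of arrays per mouse these differences between mice have no replicate check.

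**Figure D5:**
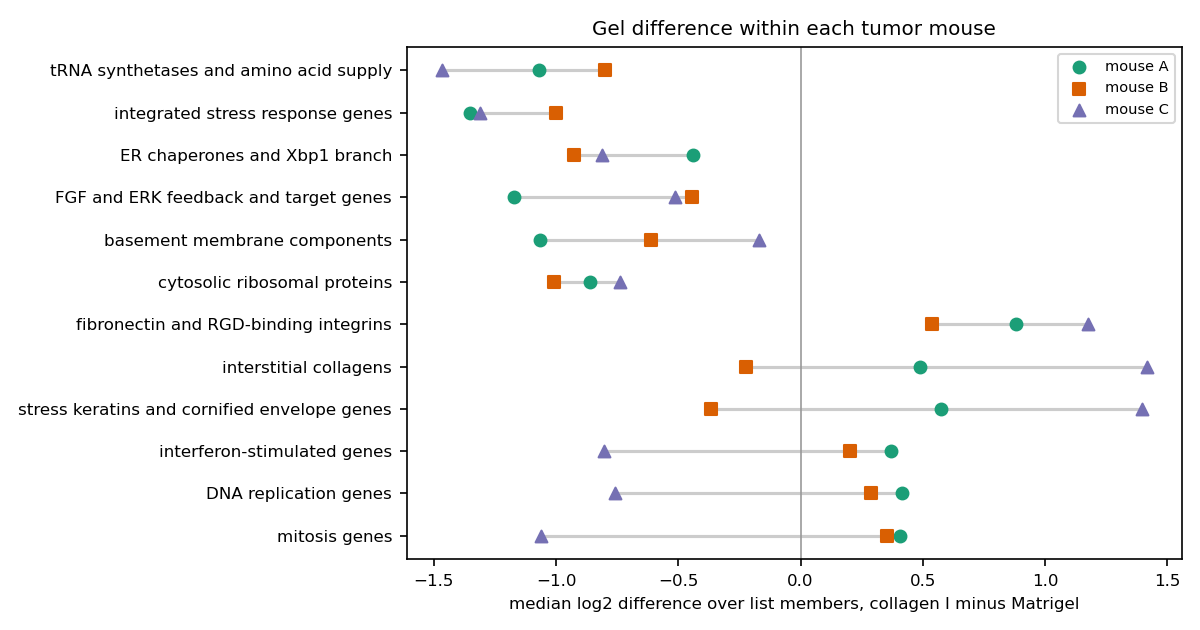
Median collagen I minus Matrigel difference (log2) over the tested members of 12 gene lists, with 1 point for each of mice A, B and C. The integrated stress response, amino acid, ER chaperone and ribosomal lists lie below 0 in all 3 mice, while the mitosis, DNA replication and interferon lists lie above 0 in mice A and B and below 0 in mouse C.

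The last comparison asks whether tumor organoids responded to the gel differently from normal ones. In normal organoids 8 genes (0.0438%) passed between the gels. The difference of the effects, tested in the same fit, passed for 481 genes (2.63%), with a more positive effect in tumor for 245 and a more negative one for 236. Of the 481, 450 were also called in tumor organoids, which is 93.6% of the 481 and 8.84% of the tumor calls. Both comparisons use the same tumor arrays, so their lists are not independent.

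The stress and amino acid genes recur there. Of 16 stress response genes 7 had a lower effect in tumor, of 29 amino acid genes 10, and of 24 ER chaperone genes 3. Csf3 differed by -4.27 (limma adjusted p = 0.00068), with an effect of -3.21 in tumor and 1.06 in normal organoids. Ddit3 differed by -3.05, Trib3 by -2.62, Slc6a9 by -2.39 and Derl3 by -2.74. Among the genes with the more positive effect in tumor, Pappa differed by 4.53 and Idi1 by 2.66 (limma adjusted p = 0.0082). With the mouse as a block no gene passed (limma), while 3787 had an unadjusted p under 0.05. That block takes no information from normal mice C and D, which have 1 gel each, so it has less power. Without a block the count ran from 12 without the normal collagen I array of mouse B to 2086 without the normal Matrigel array of mouse A. These differences therefore depend on the choice of model and on single normal arrays.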

How the data were processed

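The members are the 6 tumor samples of 13, grouped by the labels, and the members and the 53 gene lists were chosen with earlier results of these data known. The deposited intensity is Agilent's processed signal, detrended and background-adjusted per the file headers (Feature Extraction 9.5.1.1; 9.1 per the submitters' processing notes). Background and outlier calls are other deposited columns of these files. The authors' deposited log2 values were an alternative; how they were centred is not stated there. The log2 signal of each of 41174 probes was set relative to its array's 75th percentile, and 26606 probes were kept that were well above background on every array of 1 group with at least 2 values in each. The brightest probe stood for a gene; 22951 probes were named through RefSeq.

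In R 4.3.3, with tables handled by data.table (version 1.17.8), limma 3.58.1 fitted 4 groups of 3 arrays (residual df 8, prior df 2.746) with Benjamini-Hochberg adjustment. "At least N-fold" compares the bright gel's mean with a floor in the dim gel, on each array the gene's own signal or, if higher, the dimmest signal that counts as well above background. Arrays carry no counts, and their number limits the precision: 3 against 3 allows no exact permutation p under 0.1. A shared letter is the same animal, so the mouse is a true pair; same-mouse deviations correlated across genes at -0.058, 0.32 and 0.42 for mice A, B and C. The genes named are the 12 with the greatest change per direction, up to 6 one-sided ones, up to 4 passing members or the 2 brightest of each list, and 12 fixed genes, 201 in all, some left out for length and 1 not reported here. Others named were chosen after their values were seen. Alternatives were 5 scalings or background corrections (cyclic loess added after seeing the data), 2 filters, probe means, flagged spots, mouse and slide blocks, variance and weight settings, the repeated arrays of an earlier batch and each array left out. The fit was tested on simulated data.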

Additional observations from a re-analysis of the deposited data

Results flagged for a closer look

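The effect of the gel differed between tumor and normal organoids for 481 genes by limma's test of the difference itself, and 54 of the genes described here are among them. Values are the tumor effect minus the normal one on the log2 scale. With the mouse as a block, which leaves out normal mice C and D, no gene passed this test (limma) and 3787 had an unadjusted p under 0.05. Without the block 4772 genes had one, and leaving out 1 array gave 12 to 2086 genes, so each value below depends on the model and on single arrays. A test for a single far array was not made, because groups hold 3 arrays.

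A more negative effect in tumor was found for 41. In the integrated stress response these were Ddit3 (-3.05), Trib3 (-2.62), Chac1 (-2.42), Atf5 (-1.89), Asns (-1.60) and Atf4 (-1.24). In amino acid supply they were Slc6a9 (-2.39), Mthfd2 (-2.19), Slc7a5 (-2.17), Pycr1 (-1.90), Slc3a2 (-1.76), Sars (-1.31), Cars (-1.25), Yars (-1.21) and Mars1 (-1.16), and beside them the mitochondrial enzyme Pck2 (-1.69). Derl3 (-2.74) and Hyou1 (-1.41) belong to the ER list. Cytokines, chemokines, their receptors and defense genes were Csf3 (-4.27), Bpifb1 (-4.30), Cd68 (-4.07), Ccl5 (-3.14), Tnfrsf1b (-2.90), Lbp (-2.81), Ccl20 (-2.58), Chil1 (-2.33) and Lta (-1.71). Signalling, matrix and transcription genes were Htra3 (-2.82), Hbegf (-2.56), Tead4 (-2.06), Col18a1 (-1.92), Epha2 (-1.74), Spry2 (-1.51), Elf3 (-1.51), Tgm2 (-1.50) and Ltbp3 (-1.37). The others were Asic2 (-2.82), Megf6 (-2.49), Gne (-2.15), Lyzl4 (-1.68) and Rpl28 (-1.07).

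A more positive effect in tumor was found for 13. They were Pappa (4.53), Gucy1b1 (3.68), Gucy1a1 (3.33), 6330407A03Rik (3.17), Gpr177 (2.94), Idi1 (2.66), Ctnnd2 (2.57), E030024N20Rik (2.57), Pola1 (2.30), Btc (2.28), Rpgrip1l (2.26), Rpgr (1.93) and Mpdz (1.82). Of these, 6330407A03Rik, E030024N20Rik, Gucy1b1, Gucy1a1, Ctnnd2 and Btc were well above background on no tumor Matrigel array, and Asic2, among the more negative ones, on no tumor collagen I array, so the size of these differences is not measured.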

How the results depend on the processing

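Of the 201 genes that the rule names 182 passed, 109 of them whichever 1 array was left out and 37 in every alternative that tested them. The 5089 genes called in tumor organoids became 1251 under normexp background correction, 2264 with only tumor arrays, 2654 with slide as a block and 2744 to 5413 with 1 array left out. Mice are true pairs: the mouse as a replicate block gave 4154, with tumor arrays alone 2625, and 28 genes of the rule lost their call. Median scaling moved the median of all genes to -0.37, and 27.0% of its 5999 calls were rises, against 56.7%. The 481 genes whose gel effect differed became 212 under quantile normalization, 298 under cyclic loess (added after seeing the data), 10 under normexp, 143 with the authors' values, 59 without a filter and 12 to 2086 with 1 array left out. They became 0 with the mouse as a replicate block, which leaves out normal mice C and D. With the mouse random they were 1712, and with slide fixed and random 1348 and 1672. Trended variances gave 1001, array weights 3453 and both batches averaged 2227. Signs turned under normexp for 4930413O22Rik (-0.27), A430090L17Rik (-0.17), Btc (-0.72), Ccn4 (-0.15), Ccne2 (-0.68), E030024N20Rik (-0.18), Fbn1 (-0.71), Igf1 (-0.54), Lox (-0.84), Oxtr (-0.29), Pdgfra (-0.18), Sema3c (-0.12), Gucy1b1 (-0.42), Gucy1a1 (-0.58), Ctnnd2 (-0.76), Rpgr (-0.24) and Rpgrip1l (-0.012). They turned for Acta2 (1.46), Cdh11 (0.98), Igf1r (0.76), Psmd4 (0.33) and Rnf43 (0.074) with the mean of a gene's probes, and for Atp5c1 (0.023), Klf2 (0.13), Krt8 (0.058), Spp1 (0.22) and Sprr2a1 (0.057) with the authors' values. Krt8 and Spp1 also turned under quantile normalization (0.090 and 0.21) and cyclic loess (0.059 and 0.19). The cause was not tested. Normexp also adds 50 units to every signal, which weighs more on the dimmer Matrigel arrays. Signal near background limits the dim genes, most of all in Matrigel.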

Other observations

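Among the genes with the smallest adjusted p, looked up after the values were seen, both chains of soluble guanylate cyclase, the receptor for nitric oxide, moved together. Gucy1b1 was at -3.71, -3.65 and -3.66 in collagen I, against -6.78, -6.89 and -7.17 in Matrigel, and Gucy1a1 at -4.06, -4.10 and -4.42 against -7.65, -7.09 and -7.11. Neither was well above background in Matrigel, so these are bounds, at least 3.03-fold and 2.11-fold above Matrigel (limma adjusted p = 4.8e-05 and 0.00021), and a further probe of each passed the same way. In normal organoids the differences were -0.40 and -0.24. Partner proteins of the transition zone of cilia, Rpgrip1l and Rpgr, were at 2.19 ± 0.18 and 1.82 ± 0.18 (limma adjusted p = 0.00026 and 0.00069), and Mpdz, a scaffold of tight junctions, was at 2.14 ± 0.16 (limma adjusted p = 0.00021). All 5 lost their call under normexp background correction.

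Genes with small spread fell as well. Gne, which starts sialic acid synthesis, was at 2.15, 2.13 and 2.22 in collagen I, against 4.17, 4.76 and 4.08 in Matrigel, a fall of 2.17 ± 0.19 (limma adjusted p = 0.00043). Pck2, the mitochondrial PEP carboxykinase, was at 3.54, 3.41 and 2.89 against 5.03, 5.25 and 4.97, a fall of 1.80 ± 0.19 (limma adjusted p = 0.00087). Tead4, a DNA-binding partner of YAP, was at -2.36, -2.01 and -1.57 against -0.10, 0.31 and 0.16, a fall of 2.11 ± 0.22 (limma adjusted p = 0.00081). Gne, Pck2 and Tead4 kept their calls in every alternative.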
